A study of Mus musculus with 15 samples.

Results

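Among the 16042 genes of the deposited expression table, 55 had a symbol starting with Eif, and these were taken as the translation initiation factors. They fell into 4 genes of eIF1 and eIF1A, 4 of the eIF2 subunits, 5 of its exchange factor eIF2B, 4 eIF2 kinases, the separate initiator tRNA carrier Eif2a, 13 eIF3 subunits, 11 eIF4 factors, 4 genes of eIF4E-binding proteins, 4 of the eIF5 group, and Eif6. The prefix also caught 4 genes named Eif2c1 to Eif2c4, whose current symbols are Ago1 to Ago4. These are Argonautes, the microRNA effector proteins, and are not initiation factors. Since the counts below follow the prefix, the 4 Argonautes stay in every count of initiation factor genes. Of the 55 genes 54 had a mean of at least 1 RPKM over the 15 mice and were tested. The remaining gene was Eif5a2, which stood between 0.16 and 2.66 RPKM.

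In translation initiation, eIF2 carries the initiator tRNA to the small ribosomal subunit, where eIF1, eIF1A, eIF3 and eIF5 hold it and help it find the start codon. The eIF4 factors bring in the messenger RNA by its cap, and eIF5B joins the large subunit. Initiation is turned down mainly through kinases that phosphorylate eIF2, which then blocks its exchange factor eIF2B, and through binding proteins that keep eIF4E from eIF4G. In heart muscle these controls are known for setting protein synthesis during growth and stress.

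Ventricles came from mice of 20 to 22 weeks, 3 in each of 5 groups, after removal of the atria and part of the apex. Control mice (MHCrtTA) carried the reverse tetracycline activator rtTA, under the heart-specific alpha-MHC promoter and thus active in heart muscle cells, and had doxycycline for 72 h. The 4 induced groups (MHCrtTA/TRECUGBP1) carried in addition a doxycycline-inducible, Flag-tagged human Celf1 of the LYLQ isoform, and were on the drug for 12, 24 or 72 h or for 7 days. Celf1 is an RNA-binding protein that regulates splicing and messenger RNA stability. All groups received the drug in food at 2 g/kg after 2 to 3 h without food, so the rtTA transgene and doxycycline were shared by controls. Only the 72 h group was matched to the controls for time on the drug. The labels name separate mice, without their sex. RPKM is a read count divided by the length of the gene model and by the mapped reads of the library, a level per length, so genes can be set beside each other on it. In bulk tissue, fewer cells of a type and less RNA per cell cannot be told apart.

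The table has 20 columns for the 15 mice, since 5 mice have 2 columns, which were averaged. Steps between the lowest values put the depth at 13800000 to 51800000 reads per column, with a median of 26300000. These are rough estimates, since each rests on few olfactory receptor genes, from 1 in control A3280 to 13 in a column of A3262. Celf1 was higher than control by 3.08 ± 0.20 at 12 h, 3.40 ± 0.20 at 24 h and 2.29 ± 0.20 at 72 h on the log2(RPKM + 1) scale, and at 7 days the difference was -0.07 ± 0.20. Its exact permutation p (2-sided) was 0.1 at each of the earlier times, the smallest that 3 mice against 3 allow, and 0.6 at 7 days. These values are of the mouse gene, while the transgene is human, so they hold only those transgene reads that map to the mouse gene. What share of the transgene reads does so was not tested. The 3 controls carry a code in their column names that among induced mice only A3278 has, a mouse of the 72 h group. The 4 columns of the 24 h group carry codes of their own, so these cannot be told apart from the group. No source used here says what the codes mean.

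One mouse had 2 columns that did not match each other, and an initiation factor gene showed it. Eif2s3y, on the Y chromosome at chrY:346986-365290 (mm9), encodes a copy of the gamma subunit of eIF2. In mouse A3264 of the 72 h group it stood at 0 RPKM in 1 column and at 20.0 in the other. Each of the other 4 mice with 2 columns had Eif2s3y in both or in neither. Over 7474 genes, the log2 deviations from the mean of all columns correlated at 0.48 between the 2 columns of A3264, against 0.82 to 0.93 for the other 4 mice. The Y-linked genes Ddx3y, Jarid1d and Uty stood at 0.1, 0 and 0.1 RPKM in the column without Eif2s3y. In the other they stood at 21.75, 3.54 and 6.04. The column without Eif2s3y correlated at 0.69 and 0.64 with the columns of A3281 and at 0.35 with A3278. For the other column these values were 0.61, 0.52 and 0.45. Whether both columns come from the same mouse was not tested. At 72 h the number of initiation factor genes past the test was 7 with both columns averaged, 7 with the column without Eif2s3y alone, 6 with the other alone and 5 without the mouse, higher than control in each case.

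**Figure D1:**
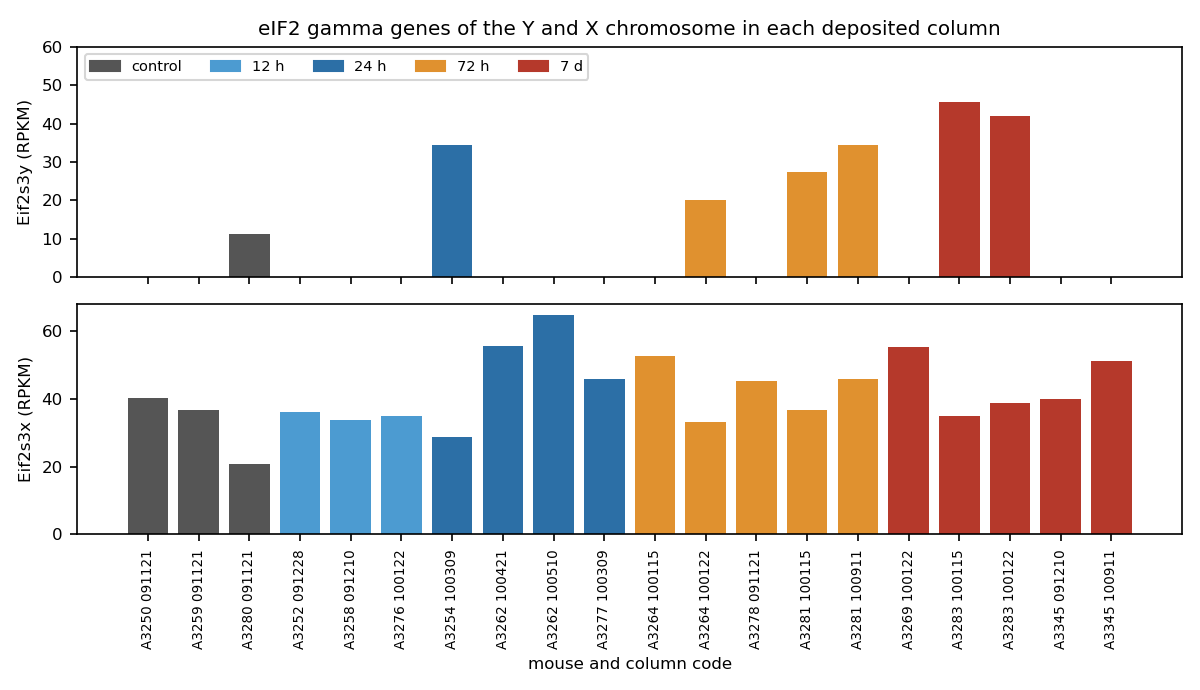
RPKM of Eif2s3y (top) and Eif2s3x (bottom) in each of the 20 deposited columns, labelled by mouse and column code and coloured by group. Eif2s3y is present in 7 of 20 columns, and in mouse A3264 in 1 of its 2 columns.

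Eif2s3y was above 1 RPKM in 1 control mouse (A3280, 11.4 RPKM), 0 mice at 12 h, 1 at 24 h (A3254, 34.5), 2 at 72 h (A3264 and A3281) and 1 at 7 days (A3283, 43.9). It was listed at 0 in the other 10. The X-linked copy Eif2s3x was present in every mouse, from 20.7 to 60.2 RPKM, lowest in control A3280. The coding sequences of the 2 genes are 86.4% identical over 1416 aligned bases, with a longest identical run of 34 bases. Eif2s3y passed in no comparison with control, with differences from -1.21 to 1.61 and a standard error of 1.53, and its values in each induced group overlap those of the controls.

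Sequences are shown for 4 genes that the results turn on: the RNA helicase genes Eif4a1 and Eif4a2, which moved in opposite directions at 7 days, the cap-binding factor Eif4e, higher at 24 h and lower at 7 days, and Eif5, which passed at all 4 times. Each is the 250 bases before the transcript start from RefSeq (GRCm38.p6), 5′ to 3′ on the strand of the gene, with the E-box letters CACGTG in capitals. CACGTG reads the same on both strands and is the core site of MYC and related factors. They lie at chr11:69672424-69672673 (minus strand), chr16:23107218-23107467, chr3:138527018-138527267 and chr12:111537851-111538100 (plus strand). RefSeq lists 2 starts for Eif4e, of which the second is printed, and the window of the first holds no CACGTG.
Eif4a1: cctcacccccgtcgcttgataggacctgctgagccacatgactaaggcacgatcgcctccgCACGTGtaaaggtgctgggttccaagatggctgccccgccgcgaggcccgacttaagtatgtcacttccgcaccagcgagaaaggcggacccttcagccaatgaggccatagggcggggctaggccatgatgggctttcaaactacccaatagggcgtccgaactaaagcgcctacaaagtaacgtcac
Eif4a2: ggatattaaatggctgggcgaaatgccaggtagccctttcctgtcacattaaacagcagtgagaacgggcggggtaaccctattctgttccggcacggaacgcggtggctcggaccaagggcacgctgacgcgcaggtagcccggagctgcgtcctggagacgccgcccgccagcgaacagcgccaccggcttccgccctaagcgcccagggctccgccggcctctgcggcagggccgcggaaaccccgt
Eif4e: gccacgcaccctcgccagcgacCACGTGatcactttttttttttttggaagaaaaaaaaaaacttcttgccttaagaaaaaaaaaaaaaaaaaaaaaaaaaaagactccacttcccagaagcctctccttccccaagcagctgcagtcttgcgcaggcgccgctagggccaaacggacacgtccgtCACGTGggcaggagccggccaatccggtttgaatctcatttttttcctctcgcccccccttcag
Eif5: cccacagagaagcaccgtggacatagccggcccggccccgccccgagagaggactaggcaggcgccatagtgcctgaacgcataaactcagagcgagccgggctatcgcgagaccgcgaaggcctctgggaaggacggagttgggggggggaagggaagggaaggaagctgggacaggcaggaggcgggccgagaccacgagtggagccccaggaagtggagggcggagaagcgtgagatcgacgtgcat

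The Eif4a1 window holds 1 E-box, starting 189 bases before the transcript start, and the printed Eif4e window holds 2, at 228 and 64 bases. The Eif4a2 and Eif5 windows hold none. Over the 44 initiation factor genes matched in the table, 9 had CACGTG in the window of at least 1 start (20.5%): Eif1b, Eif3f, Eif3k, Eif4a1, Eif4e, Eif4g1, Eif4h, Eif5a and Eif5a2. The share was 6.9% of all 27025 genes with a RefSeq window, a set not limited to genes expressed here. Letters of the CCAAT box were present on either strand in 15 of the 44 (34.1%) and in 37.5% of all genes. A match of letters is no evidence of binding. The GU-rich element that CELF1 is known to bind, written as TGTTTGTTTGT on the strand of the transcript, occurred in the longest annotated 3′ untranslated region of 2 of 54 initiation factor genes, Eif2s3x and Eif5a2, and of 2.96% of 20007 genes. The Eif2s3x stretch, shown as the 1 example among the tested genes, lies at chrX:91434155-91434183 (mm9, minus strand), and capitals mark the first of 3 overlapping matches.
Eif2s3x: agtttttttTGTTTGTTTGTttgtttgtt

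Against control, 1 initiation factor gene was higher and 4 were lower at 12 h, 9 were higher and 2 lower at 24 h, 7 were higher and 0 lower at 72 h, and 16 were higher and 8 lower at 7 days, each of 54 tested in limma at an adjusted p under 0.05. The 54 include the 4 Argonautes, of which Eif2c3 is 1 of the 7 at 72 h. At an unadjusted p under 0.05 in limma 4 genes were lower at 72 h. Of all 10868 genes tested, 0.524% were higher and 12.7% lower at 12 h, 5.38% and 10.6% at 24 h, 6.39% and 5.22% at 72 h, and 26.7% and 28.2% at 7 days. The counts by factor and by list given below are to be read against these shares. The median log2 difference of the 54 genes was -0.20, 0.04, 0.13 and 0.27 at the 4 times, and that of all genes -0.30, -0.19, -0.10 and -0.03. With each mouse scaled by its median ratio the median of the 54 genes was 0.14 at 12 h and 0.24 at 24 h, and 0 of them passed at 12 h. An F test over the groups called 34 of the 54 genes (63.0%) and 71.3% of all genes. All 3 induced mice lay above all 3 controls in 7, 12, 19 and 20 of the 54 genes at the 4 times, and below them in 20, 10, 4 and 10. Of all 10868 genes 500, 1508, 1687 and 3516 lay above, and 4677, 3577, 2122 and 3751 below. Lack of overlap was thus common over all genes. The 4 comparisons share their control mice.

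**Figure D2:**
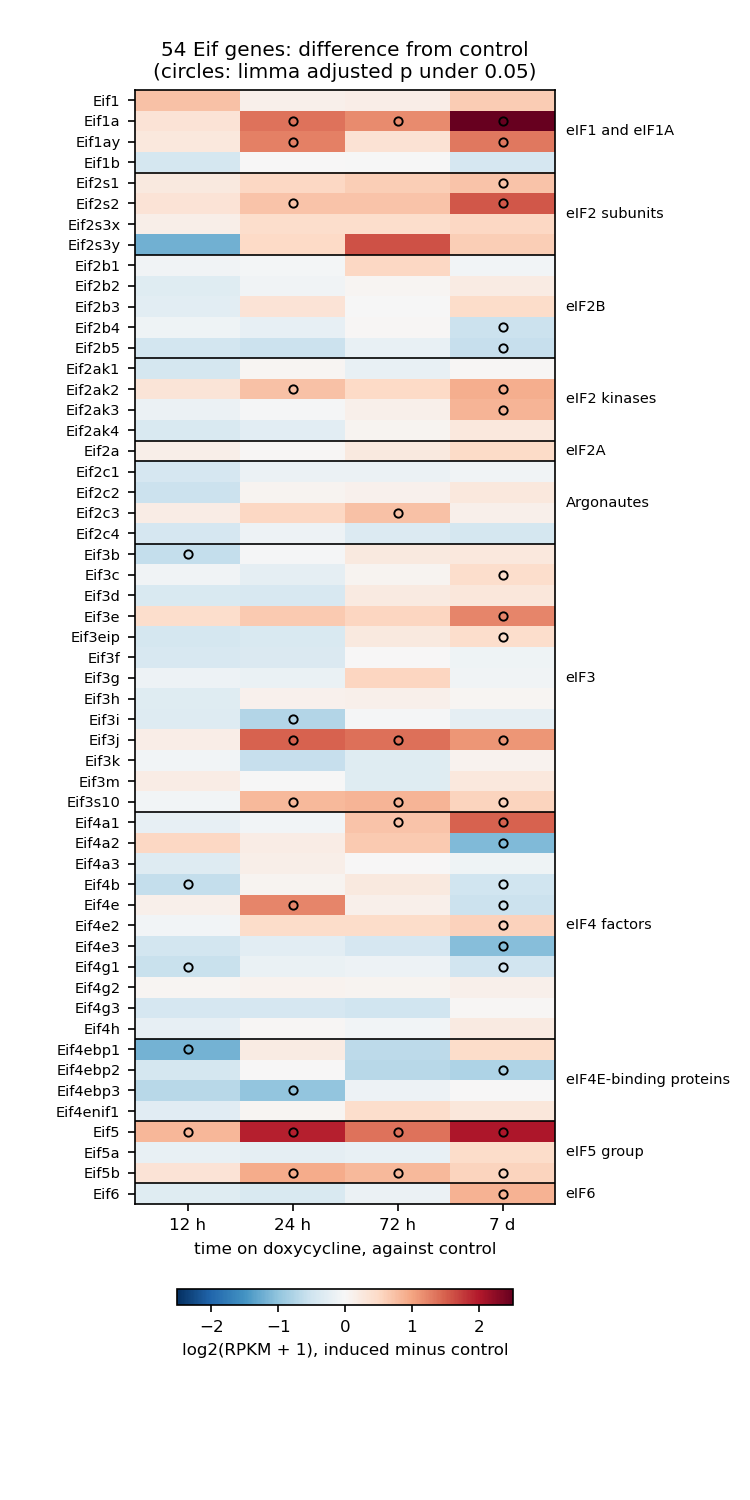
Difference in log2(RPKM + 1) between each induced group and control for the 54 tested genes, ordered by factor, with a circle where the limma adjusted p was under 0.05. At 7 days 24 of 54 genes carry one, while 5960 of all 10868 genes tested passed at that time. Eif5 carries one at each of the 4 times.

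At 24 h GC content differed between the genes called in each direction. The 9 higher genes had 39.7 to 44.7% GC in their longest transcript and the 2 lower genes 52.9 and 53.5%. The 43 uncalled genes had a median of 50.8%. At 12 h the 1 higher gene had 41.1% and the 4 lower genes 50.3 to 57.2%. At 7 days the ranges overlapped, with 39.7 to 57.9% in the 16 higher genes and 40.2 to 56.8% in the 8 lower genes. After correction of each mouse for GC content 0 genes passed at 12 h, 7 were higher and 1 lower at 24 h, 14 were higher and 0 lower at 72 h, and 23 were higher and 5 lower at 7 days. Of the calls made without it, 0 of 5 at 12 h, 7 of 11 at 24 h, 6 of 7 at 72 h and 17 of 24 at 7 days held.

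The number of calls against control moved when single mice were removed. Without control A3280 the number of initiation factor genes past the test was 0 at 12 h, 2 at 24 h (Eif4e and Eif5), 3 at 72 h and 13 at 7 days, and without A3259 it was 0 at 12 h and 5 at 24 h. At 12 h 1 gene passed without A3250, A3258 or A3276. Without A3262 it was 5 at 24 h. Without A3281 it was 2 at 72 h (Eif3j and Eif5), and without A3278 it was 13, of which 2 were lower. With A3278 as the only mouse of the 72 h group each of the 7 differences was smaller. Eif5 was at 0.65, Eif1a at 0.60, Eif3j at 0.75 and Eif5b at 0.33, against 1.37, 1.18, 1.39 and 0.82 with all 3 mice. Eif3s10, Eif2c3 and Eif4a1 were at 0.62, 0.57 and 0.65, against 0.85, 0.73 and 0.72. With the column code as a term the number past the test was 0 at 12 h, 1 at 72 h (Eif3g) and 13 at 7 days. The term could not be fitted at 24 h. Among induced mice only A3278 has the code of the controls, so every difference from control in this fit rests on that mouse. At 72 h the fit gave the same 7 differences as A3278 alone. Of the calls made without the term 0 of 7 held at 72 h and 8 of 24 at 7 days, those of Eif1a, Eif1ay, Eif2ak3, Eif3eip, Eif4a1, Eif4a2, Eif5 and Eif6. In the mice without Y-linked RNA alone the number was 0 at 12 h, 5 at 24 h, 0 at 72 h and 13 at 7 days. Mouse A3264 was kept in that fit by its column without Y-linked RNA. Removal of a mouse leaves 2 in its group.

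Of the factors that choose the start codon, Eif5, the GTPase activator that sets off GTP hydrolysis by eIF2, was higher in every induced group. Eif5 lies at chr12:112776312-112794270 on the plus strand of mm9. Its RPKM was 32.9, 26.9 and 24.7 in controls, 44.97, 50.3 and 57.8 at 12 h, 111, 112 and 110.2 at 24 h, 82.8, 44.3 and 109 at 72 h and 116, 145 and 96.1 at 7 days. All induced mice lay above all controls, and at 72 h A3278 was the lowest. The log2 difference, with the standard error of the fit, was 0.84 ± 0.25 at 12 h, 1.95 ± 0.25 at 24 h, 1.37 ± 0.25 at 72 h and 2.03 ± 0.25 at 7 days. Adjusted p in limma was 0.0399, 0.00158, 0.00259 and 4.08e-06. The rise at 24 h passed in all 19 alternatives run for it, with values from 1.58 to 2.16, and that at 7 days in all 20, from 1.03 to 2.21. The column code is not among those 19, since it could not be fitted at 24 h. At 12 h Eif5 was lost in 12 of 20 alternatives, among them GC correction (0.74, adjusted p 0.0537), either scaling, and removal of A3258, A3276 or any 1 of the controls. With the column code as a term its 12 h difference was 0.07. At 72 h Eif5 did not pass with the column code as a term, at 0.65, nor in mice without Y-linked RNA alone. With A3278 alone it was also at 0.65, since both fits set that mouse against the controls.

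Eif1a and Eif1ay encode eIF1A, which holds the scanning ribosome open for the start codon, and both were higher at 24 h and 7 days. Eif1a is on chromosome 18 at 46757358 to 46769879, and the gene listed as Eif1ay, now named Eif1ax, is on the X chromosome at 155810110 to 155827860. Eif1a stood at 5.74, 6.04 and 4.61 RPKM in controls, 6.41, 5.98 and 9.66 at 12 h, 12.6, 14.3 and 20.7 at 24 h, 14.01, 8.73 and 20.2 at 72 h and 35.9, 44.9 and 28.2 at 7 days. From 24 h on every induced mouse lay above the controls, and at 12 h the groups overlapped. It rose by 1.36 ± 0.27, 1.18 ± 0.27 and 2.51 ± 0.27 at 24 h, 72 h and 7 days (adjusted p in limma 0.00798, 0.00946 and 7.51e-07). The last was the largest difference of any initiation factor gene, and it passed in all 20 alternatives. At 24 h Eif1a did not pass without control A3280 (adjusted p 0.0537 in limma), and at 72 h it did not pass without control A3280 or mouse A3281, with the column code as a term, or in mice without Y-linked RNA alone.

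Eif1ay, the more abundant of the pair, stood at 30.2, 28.0 and 21.9 RPKM in controls, 30.3, 32.97 and 33.3 at 12 h, 61.96, 87.3 and 50.7 at 24 h, 35.8, 25.99 and 43.8 at 72 h and 71.7, 67.6 and 63.7 at 7 days. At 12 h, 24 h and 7 days its values lay above all controls, while at 72 h they overlapped. It rose by 1.26 ± 0.21 at 24 h and 1.32 ± 0.21 at 7 days (adjusted p in limma 0.00592 and 5.91e-05), fell by 0.90 ± 0.21 from 24 to 72 h and rose by 0.95 ± 0.21 from there to 7 days. The Eif1a-to-Eif1ay ratio of RPKM was 0.190 to 0.216 in controls and 0.443 to 0.663 at 7 days, without overlap. The coding sequences are 85.5% identical over 435 bases. The 24 h value of Eif1ay did not pass without control A3280, nor in mice without Y-linked RNA alone.

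Eif1, which guards against wrong start codons and was the most abundant initiation factor at a mean of 403 RPKM, passed in no comparison with control. It stood at 399, 298 and 242 RPKM in controls, 409, 610.0 and 538 at 12 h and 531, 421 and 484 at 7 days. Both induced groups lay above the controls, with differences of 0.74 ± 0.27 and 0.64 ± 0.27 and an adjusted p of 0.0692 and 0.0517 in limma. Its paralog Eif1b, at 23.7 to 53.0 RPKM, differed from control by -0.44 to 0.01 and passed in none.

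Eif5b, the GTPase that joins the large ribosomal subunit, stood at 27.2, 27.1 and 23.5 RPKM in controls, 48.9, 47.6 and 53.7 at 24 h, 46.2, 32.7 and 66.8 at 72 h and 35.8, 50.0 and 32.3 at 7 days. All of these induced mice lay above the controls, with rises of 0.92 ± 0.22, 0.82 ± 0.22 and 0.56 ± 0.22 (adjusted p in limma 0.015, 0.0215 and 0.0366). At 12 h the difference was 0.34 ± 0.22, not past the test. The 24 h rise was lost without A3259, A3280 or A3262. The 7 day rise was lost after GC correction and without A3283 or any 1 of the controls, and with the column code as a term the difference of Eif5b was -0.06. At 72 h it was lost without A3264 (adjusted p 0.0666), A3281 or any 1 of the 3 controls. Eif5b overlaps exons of Rev1 on the opposite strand, and no source used here says whether the counting used strand. The Eif5-to-Eif5b ratio was 0.993 to 1.21 in controls, 1.41 to 1.76 at 12 h, 2.05 to 2.36 at 24 h, 1.35 to 1.79 at 72 h and 2.89 to 3.24 at 7 days, above control in every induced mouse.

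**Figure D3:**
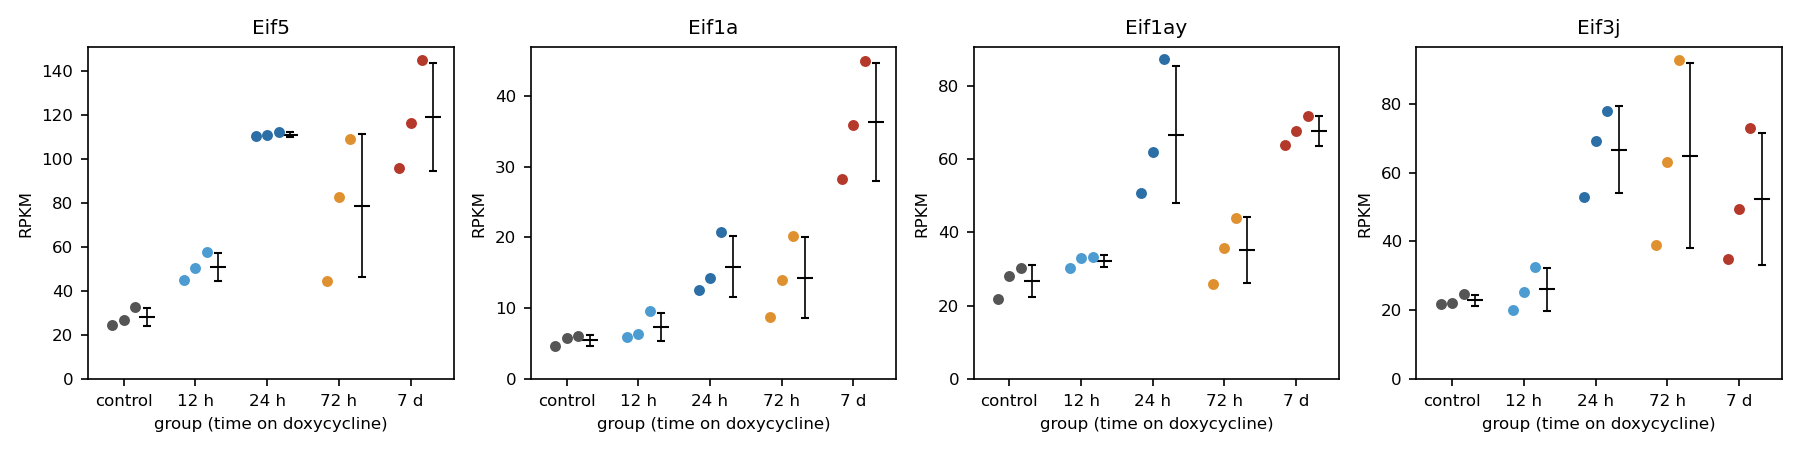
RPKM of Eif5, Eif1a, Eif1ay and Eif3j, one point per mouse, with the group mean and SD (n = 3) beside the points. All 12 induced mice lie above the controls for Eif5, and the Eif1a values at 7 days lie above those of every other group.

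A list of 10 partners at the start site and the ribosome, chosen with earlier results of these data known, gave 0 higher and 0 lower at 12 h, 4 and 0 at 24 h, 1 and 1 at 72 h, and 5 and 2 at 7 days. The medians were -0.02, 0.50, 0.36 and 0.21. Of all genes 5.38% were higher and 10.6% lower at 24 h, and 26.7% and 28.2% at 7 days. Denr and Mcts1 form a complex that recycles ribosomes and promotes reinitiation. Denr rose by 0.98 ± 0.20 at 24 h and 0.55 ± 0.20 at 7 days, and Mcts1 by 1.86 ± 0.30 at 7 days. The call of Mcts1 passed in all 20 alternatives, and the 7 day call of Denr was lost in 6 of 20, with GC correction, the column code as a term or mice without Y-linked RNA alone, and without A3280, A3269 or A3283. Abce1, the ribosome recycling ATPase, rose by 0.69 ± 0.23 at 24 h, lost in 12 of 19 alternatives including GC correction and removal of any 1 of the 6 mice, and by 1.21 ± 0.23 at 7 days, lost only with the column code. The mitochondrial initiation factors also passed, with Mtif2 at 0.86 ± 0.20 at 24 h, lost without A3262, and Mtif3 at -0.85 ± 0.20 at 7 days, lost with the column code. Ddx3x, an X-linked helicase gene with a Y-linked copy, rose by 0.76 ± 0.21 at 24 h, 0.72 ± 0.21 at 72 h and 0.87 ± 0.21 at 7 days, and each of these calls was lost after GC correction and in mice without Y-linked RNA alone. That at 7 days was lost also with the column code, that at 24 h without A3259, A3262 or A3277, and that at 72 h without A3259, A3264 or A3281. Without control A3280 none of the 4 calls at 24 h held, nor that of Ddx3x at 72 h.

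Bzw1 and Bzw2 encode mimics of eIF5 that compete with it for eIF2, and at 7 days they moved in opposite directions. Bzw1 was at 27.0, 27.6 and 24.9 RPKM in controls and 75.3, 79.1 and 58.9 at 7 days, a rise of 1.38 ± 0.20. Bzw2 was at 93.3, 84.9 and 81.1 in controls and 31.2, 45.2 and 38.4 at 7 days, a fall of 1.17 ± 0.17. Neither pair of groups overlapped, and both calls passed in all 20 alternatives. Bzw2 was already lower at 72 h, at 41.5, 54.8 and 45.6 RPKM, a fall of 0.86 ± 0.17 that was lost with the column code and in mice without Y-linked RNA alone.

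Of the 4 genes of eIF2 subunits 0 passed at 12 h, 1 was higher at 24 h, 0 passed at 72 h and 2 were higher at 7 days. Eif2s2, the beta subunit, stood at 35.8, 35.6 and 30.1 RPKM in controls, 37.4, 50.4 and 41.5 at 12 h, 61.1, 54.9 and 52.9 at 24 h, 58.3, 38.2 and 78.4 at 72 h and 90.1, 135 and 85.2 at 7 days. Every induced mouse lay above the controls. The rise was 0.72 ± 0.23 at 24 h (adjusted p 0.0448) and 1.56 ± 0.23 at 7 days (2.78e-05), and the difference at 72 h was 0.71 ± 0.23, with an adjusted p of 0.0549 in limma. The 24 h call was lost after GC correction and without any 1 of the 6 mice compared, while the 7 day call was lost only with the column code as a term (0.86, adjusted p 0.0768). Eif2s1, the alpha subunit that the eIF2 kinases phosphorylate, was at 18.4, 21.1 and 14.7 RPKM in controls and 28.5, 35.7 and 26.8 at 7 days, a rise of 0.72 ± 0.23 (adjusted p 0.014), lost after GC correction and without control A3280 or mouse A3283. Eif2s3x, the gamma subunit, differed from control by 0.15 to 0.52 and passed in none.

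The 5 genes of eIF2B, which reloads eIF2 with GTP, gave 0 calls at 12, 24 and 72 h and 2 lower at 7 days. Eif2b4 went from 25.3, 25.4 and 28.9 RPKM in controls to 17.5, 17.9 and 18.2 at 7 days, a fall of 0.54 ± 0.18 (adjusted p 0.0181). Eif2b5, the catalytic subunit, went from 24.9, 28.02 and 26.4 to 13.02, 19.2 and 21.02, a fall of 0.57 ± 0.20 (adjusted p 0.0213). In both genes the groups did not overlap. Both falls were lost after GC correction, with the first column of each mouse, and without control A3280, and that of Eif2b5 also without A3259 or A3269. Eif2b4 shares exon sequence with Snx17 on the opposite strand. Eif2b1 and Eif2b2, which with Eif2b4 form the regulatory part, and Eif2b3, the partner of Eif2b5 in the catalytic part, were at 11.5 to 29.0, 12.8 to 27.5 and 5.86 to 15.4 RPKM and passed in no comparison with control, with differences of -0.07 ± 0.21, 0.20 ± 0.24 and 0.46 ± 0.23 at 7 days.

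Of the 4 eIF2 kinases 1 was higher at 24 h and 2 at 7 days. Eif2ak3, or PERK, the kinase of endoplasmic reticulum stress, was at 2.6, 2.7 and 2.98 RPKM in controls, 2.39, 2.45 and 2.4 at 12 h, 2.35, 2.83 and 2.86 at 24 h, 2.72, 4.03 and 2.71 at 72 h and 6.06, 5.57 and 5.77 at 7 days. The 7 day values lay above those of all other mice, and the rise of 0.86 ± 0.16 (adjusted p 0.000276) passed in all 19 alternatives run for it. Eif2ak2, or PKR, which double-stranded RNA activates, was at 2.61, 4.03 and 2.73 RPKM in controls, 5.12, 7.46 and 5.03 at 24 h and 5.51, 7.58 and 7.02 at 7 days. It rose by 0.73 ± 0.20 and 0.91 ± 0.20 (adjusted p 0.0264 and 0.00129), and the groups did not overlap. The 24 h rise was lost after GC correction and without mouse A3262 or any 1 of the controls, and that at 7 days with the column code as a term (0.69, adjusted p 0.139). Eif2ak1, the haem-regulated kinase, at 7.69 to 12.6 RPKM, and Eif2ak4, or GCN2, the sensor of amino acid lack, at 1.48 to 4.25 RPKM, passed in none. The separate factor Eif2a, at 11.1 to 21.3 RPKM, also passed in none, with a difference of 0.49 ± 0.21 and an adjusted p of 0.0547 at 7 days.

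A list of 12 genes around eIF2 phosphorylation, chosen with earlier results known, gave 0 higher and 1 lower at 12 h, 2 and 0 at 24 h, 2 and 0 at 72 h, and 6 and 2 at 7 days, with medians of -0.23, -0.17, 0.29 and 0.50. At 7 days 26.7% of all genes were higher and 28.2% lower. Impact, an inhibitor of GCN2 activation, was at 9.60, 10.2 and 9.13 RPKM in controls, 19.3, 24.8 and 23.4 at 24 h, 36.8, 36.2 and 46.1 at 72 h and 14.9, 18.2 and 16.2 at 7 days. From 24 h on all induced mice lay above the controls, and the rises were 1.14 ± 0.16, 1.93 ± 0.16 and 0.71 ± 0.16 (adjusted p 0.00286, 1.58e-06 and 0.00162 in limma). The first 2 rises of Impact passed in all alternatives run for them, which at 24 h do not include the column code. The rise at 7 days was lost after GC correction and with the column code. Ppp1r15a, the stress-induced subunit that directs a phosphatase to eIF2, was at 17.1, 18.5 and 17.2 RPKM in controls, 43.2, 37.0 and 44.5 at 72 h and 58.1, 105.5 and 48.1 at 7 days. It rose by 1.19 ± 0.23 and 1.86 ± 0.23, without overlap, and the first call was lost with the column code.

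Also at 7 days Atf4, the transcription factor translated when eIF2 is phosphorylated, rose by 0.77 ± 0.18 and its target Asns, asparagine synthetase, by 0.94 ± 0.16. Dnajc3, an inhibitor of PERK and PKR, rose by 1.38 ± 0.26 at 7 days, in addition to Ppp1r15a. Atf5 and Gcn1l1, a partner that activates GCN2, fell by 1.02 ± 0.40 and 0.75 ± 0.20 at that time, the latter lost with the column code (-0.19). At 12 h Gcn1l1 fell by 0.62 ± 0.20, lost in 15 of 20 alternatives, GC correction among them, and at 24 h Nck1, an adaptor that helps dephosphorylate eIF2, rose by 0.87 ± 0.23, lost after GC correction and without A3259, A3280 or A3262. The fall of Atf5 was lost in 10 of 20 alternatives, among them GC correction and removal of A3269, A3283 or any 1 of the controls, and with the column code as a term the difference was 0.29.

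Of the 13 eIF3 subunits, which form the scaffold between messenger RNA and the small ribosomal subunit, 0 rose and 1 fell at 12 h, 2 and 1 at 24 h, 2 and 0 at 72 h, and 5 and 0 at 7 days. Their medians were -0.13, -0.17, 0.23 and 0.27. Over all genes 26.7% rose and 28.2% fell at 7 days. The highest subunit was Eif3h in 14 of 15 mice, at 104 to 198 RPKM, and it passed in none of the comparisons with control. The lowest in the 3 controls was Eif3j, which lay 5.73 to 6.95 times below Eif3h there. In A3281 at 72 h Eif3s10 was the highest. At 7 days the lowest was Eif3g in 2 mice and Eif3j in 1, with ratios of highest to lowest of 3.77 to 4.58.

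Eif3j, a loosely bound subunit that acts on start site selection and recycling, lies at chr2:121854282-121882334. It stood at 24.7, 21.98 and 21.9 RPKM in controls, 20.1, 25.3 and 32.7 at 12 h, 52.9, 69.2 and 78.05 at 24 h, 63.03, 39.03 and 92.9 at 72 h and 49.5, 72.9 and 34.8 at 7 days. From 24 h on all induced mice were above the controls, A3345 of the 7 day group and A3278 of the 72 h group least. The rises were 1.49 ± 0.29, 1.39 ± 0.29 and 1.10 ± 0.29 (adjusted p in limma 0.00798, 0.00611 and 0.004). The 24 h rise, not tried with the column code, was lost only without control A3280 (adjusted p 0.0532). That at 7 days was lost with the column code as a term (0.34, adjusted p 0.539) and in mice without Y-linked RNA alone. The 72 h rise was lost in the last 2 of these, and it was 0.75 both with the column code and with A3278 alone. The gene is now named Eif3j1, and a second gene of the kind, Eif3j2, is listed in RefSeq, so reads may be split between them. Exons of Spg11 overlap it on the opposite strand.

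Eif3s10, now Eif3a, the largest scaffold subunit, was at 62.01, 62.6 and 57.9 RPKM in controls, 63.4, 59.2 and 51.98 at 12 h, 88.3, 122 and 117 at 24 h, 100.5, 93.9 and 142 at 72 h and 85.8, 109 and 79.4 at 7 days. Its values at the last 3 times lay above the controls, and those at 12 h overlapped them. It rose by 0.82 ± 0.19, 0.85 ± 0.19 and 0.57 ± 0.19 (adjusted p 0.0146, 0.00924 and 0.0182). The 72 h rise was lost without A3281 (0.67, adjusted p 0.0652), and that at 7 days after GC correction (0.29, adjusted p 0.14) and without A3280 or A3283. At 24 h the call was lost without control A3259 or A3280 or mouse A3262.

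Eif3e, a subunit at the messenger RNA exit side, was at 35.8, 28.4 and 22.6 RPKM in controls and 67.5, 76.3 and 61.3 at 7 days, a rise of 1.23 ± 0.27 (adjusted p 0.00103) without overlap. It was lost only with the column code as a term, at 0.38 with an adjusted p of 0.379. Eif3c and Eif3eip, now Eif3l, rose by 0.44 ± 0.17 and 0.43 ± 0.17 at 7 days, and both were lost without A3283, A3345 or any 1 of the controls. Eif3i, a propeller subunit that binds Eif3b, was at 70.1, 79.7 and 78.7 RPKM in controls and 53.4, 36.5 and 48.4 at 24 h, a fall of 0.73 ± 0.20 (adjusted p 0.025) lost without control A3259 or A3280 or mouse A3262. Eif3b was at 44.4, 50.5 and 47.7 in controls and 32.5, 32.9 and 27.5 at 12 h, a fall of 0.60 ± 0.19 (adjusted p 0.0447) that was lost with either scaling, after GC correction and without any 1 of the 6 mice. The subunits Eif3d, Eif3f, Eif3g, Eif3h, Eif3k and Eif3m passed in no comparison with control. Eif3g was at 40.2, 44.5 and 45.02 RPKM in controls and 57.8, 79.6 and 54.3 at 72 h, above the controls in each mouse. The difference was 0.53 ± 0.18, with an adjusted p of 0.0601 in limma. Eif3g was the 1 gene past the test at 72 h with the column code as a term, at 0.87. That difference rests on A3278 alone, the highest mouse of the group at 79.6 RPKM.

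Of the 11 eIF4 factors, which recruit messenger RNA through its cap, 0 rose and 2 fell at 12 h, 1 and 0 at 24 h, 1 and 0 at 72 h, and 2 and 5 at 7 days. The shares of all genes at 7 days were 26.7% and 28.2%. Eif4a1 and Eif4a2 encode the 2 forms of eIF4A, the helicase that unwinds the 5′ end of the message. Eif4a1, at chr11:69480438-69485925 of mm9, stood at 139, 130.4 and 119 RPKM in controls, 120.1, 120.3 and 98.6 at 12 h, 132, 114 and 126 at 24 h, 197, 204 and 243 at 72 h and 344, 415 and 333 at 7 days. Its 72 h values lay above all controls and its 7 day values above those of every other mouse. Eif4a1 rose by 0.72 ± 0.16 at 72 h and 1.48 ± 0.16 at 7 days (adjusted p in limma 0.00901 and 1.01e-06).

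Eif4a2, at chr16:23107517-23114209, stood at 159.9, 168 and 141 RPKM in controls, 233, 217 and 224 at 12 h, 260.0, 168 and 127 at 24 h, 283, 181 and 294 at 72 h and 66.8, 85.9 and 63.2 at 7 days. The 7 day values were below those of all other mice, while those at 12 and 72 h lay above the controls without passing the test, at 0.52 ± 0.24 and 0.66 ± 0.24 (adjusted p 0.13 and 0.0794). Eif4a2 fell by 1.12 ± 0.24 at 7 days against control (adjusted p 0.00081) and by 1.78 ± 0.24 from 72 h to 7 days. The Eif4a2-to-Eif4a1 ratio was 1.15, 1.29 and 1.18 in controls, 1.94, 1.81 and 2.27 at 12 h, 1.97, 1.47 and 1.01 at 24 h, 1.43, 0.887 and 1.21 at 72 h and 0.195, 0.207 and 0.189 at 7 days. The ratios at 7 days were below, and those at 12 h above, all controls.

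Both 7 day calls passed in all 20 alternatives, from 1.32 to 1.73 for Eif4a1 and from -1.80 to -1.0 for Eif4a2. At 72 h Eif4a1 did not pass without control A3280 or mouse A3281, nor with the column code as a term. In that last fit, as with A3278 alone, it was at 0.65. The 2 coding sequences are 78.1% identical over 1221 bases, with a longest identical run of 20 bases. Both genes host small nucleolar RNAs, and Eif4a2 shares exon sequence with Rfc4 on the opposite strand. The third member, Eif4a3, a component of the exon junction complex, was at 17.8 to 38.0 RPKM and passed in none.

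**Figure D4:**
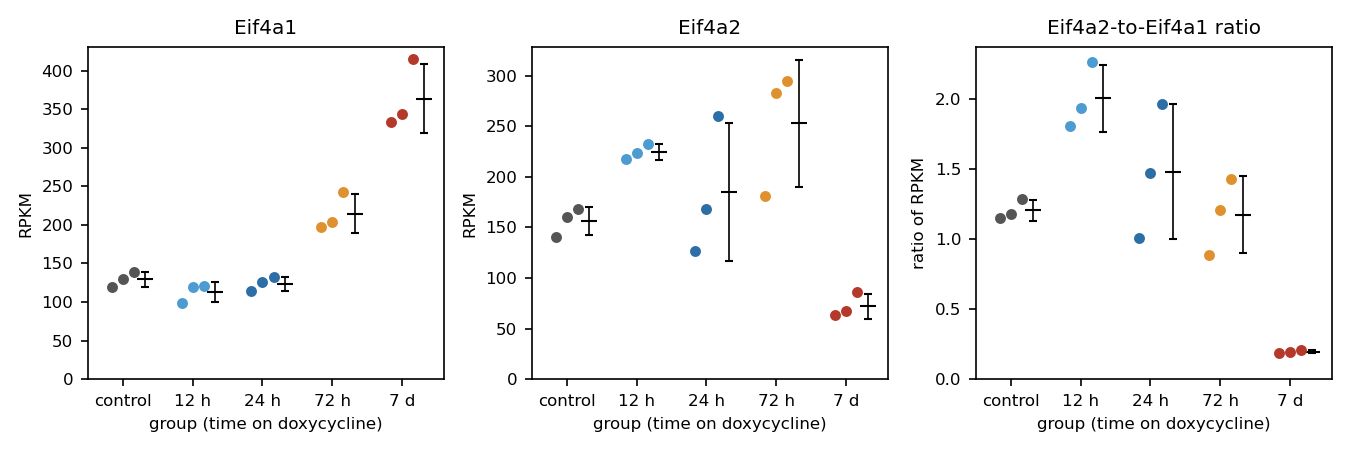
RPKM of Eif4a1 and Eif4a2 and their ratio, one point per mouse, with the group mean and SD (n = 3). At 7 days Eif4a1 lies above and Eif4a2 below all other mice, and the ratio lies between 0.189 and 0.207.

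Eif4e, the cap-binding protein, lies at chr3:138189155-138220563. It stood at 56.2, 56.5 and 63.3 RPKM in controls, 67.2, 64.6 and 59.96 at 12 h, 103, 174 and 151 at 24 h, 57.4, 65.5 and 70.8 at 72 h and 27.1, 49.3 and 46.98 at 7 days. The 24 h values lay above and the 7 day values below all other groups. It rose by 1.23 ± 0.22 at 24 h (adjusted p 0.00751), fell by 1.10 ± 0.22 from 24 to 72 h, and fell by 0.55 ± 0.22 at 7 days against control (adjusted p 0.0449). The 24 h rise was lost only after GC correction, at 0.78 with an adjusted p of 0.0567. It was not tried with the column code, which could not be fitted at 24 h. The 7 day fall was lost in 10 of 20 alternatives, among them both scalings and the fits without mouse A3269 or any 1 of the controls.

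Of the other cap-binding genes, Eif4e2, which represses selected messages, went from 18.8, 22.2 and 23.9 RPKM in controls to 30.2, 35.8 and 32.4 at 7 days, a rise of 0.58 ± 0.17 (adjusted p 0.00735). Eif4e3 went from 28.3, 34.1 and 32.5 to 15.3, 14.1 and 14.04, a fall of 1.07 ± 0.20 (adjusted p 0.000207), and overlaps Foxp1 on the same strand. Neither pair of groups overlapped, and both calls were lost only with the column code as a term (adjusted p 0.217 and 0.108). Eif4g1, the scaffold that joins eIF4E, eIF4A and eIF3, was at 119, 123 and 135 RPKM in controls, 91.5, 81.5 and 81.7 at 12 h and 76.9, 107 and 85.8 at 7 days, below the controls at both times, and fell by 0.56 ± 0.17 and 0.49 ± 0.17 (adjusted p 0.0409 and 0.0225). Eif4b, a cofactor of the helicase, fell by 0.59 ± 0.17 and 0.51 ± 0.17 at the same times (adjusted p 0.0319 and 0.0157). At 12 h both falls were lost with either scaling, after GC correction, and without A3258, A3276 or any 1 of the controls. At 7 days both were lost without A3280 or A3269, and that of Eif4g1 also after GC correction and without A3259 or A3345. Eif4g2, an eIF4G form without the eIF4E site, at 202 to 285 RPKM, and Eif4g3 and Eif4h, at 13.3 to 25.7 and 58.2 to 105 RPKM, passed in no comparison with control.

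The 4 genes of eIF4E-binding proteins gave 1 lower at 12 h, 1 lower at 24 h, 0 calls at 72 h and 1 lower at 7 days. Eif4ebp1, the best known of these repressors, was at 50.4, 52.9 and 66.6 RPKM in controls, 18.9, 30.3 and 24.2 at 12 h, 50.7, 71.5 and 75.7 at 24 h, 30.8, 54.2 and 25.7 at 72 h and 60.4, 82.7 and 94.8 at 7 days. Its 12 h values lay below all controls, and the groups overlapped at every other time. It fell by 1.19 ± 0.26 at 12 h (adjusted p 0.0129), rose by 1.40 ± 0.26 from 12 to 24 h and by 1.13 ± 0.26 from 72 h to 7 days. The 12 h fall was lost with either scaling, after GC correction, with the column code as a term (-0.24) and without control A3259 or A3280. The step from 12 to 24 h passed in all 19 alternatives, the column code not among them.

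The Eif4ebp1-to-Eif4e ratio was 0.897, 0.936 and 1.05 in controls, 0.282, 0.468 and 0.403 at 12 h, 0.493, 0.412 and 0.502 at 24 h, 0.537, 0.827 and 0.363 at 72 h and 2.23, 1.68 and 2.02 at 7 days. Every mouse of the first 3 induced groups was below the controls and every mouse at 7 days above them. Eif4ebp2 was at 23.9, 20.8 and 22.2 RPKM in controls and 10.3, 11.0 and 17.8 at 7 days, a fall of 0.77 ± 0.31 (adjusted p 0.0423) that was lost in 12 of 20 alternatives, among them GC correction (-0.45, adjusted p 0.255), either scaling and removal of A3269, A3283 or any 1 of the controls. Eif4ebp3 was at 10.2, 9.66 and 8.05 in controls and 3.82, 3.94 and 4.75 at 24 h, a fall of 0.99 ± 0.26 (adjusted p 0.0221), lost after GC correction and without A3262 or any 1 of the controls. It shares exons with Ankhd1 on the same strand. Eif4enif1, which carries eIF4E into the nucleus, passed in no comparison with control, at 10.6 to 21.8 RPKM.

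**Figure D5:**
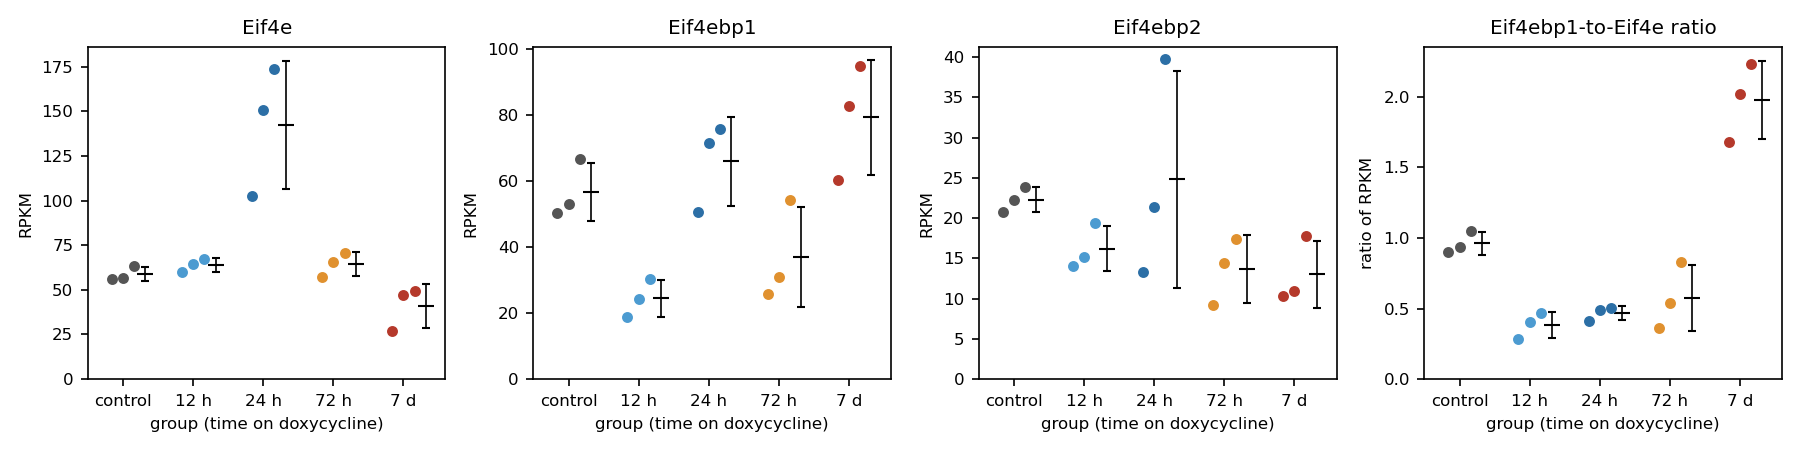
RPKM of Eif4e, Eif4ebp1 and Eif4ebp2 and the Eif4ebp1-to-Eif4e ratio, one point per mouse, with the group mean and SD (n = 3). Eif4e is highest at 24 h and lowest at 7 days, and the ratio is below the controls in the 9 mice of the first 3 induced groups and above them at 7 days.

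Of 18 listed regulators and partners of the cap complex 17 were found and tested, with 0 higher and 5 lower at 12 h, 1 and 2 at 24 h, 1 and 0 at 72 h, and 4 and 4 at 7 days. The medians were -0.32, -0.05, -0.10 and -0.19. Over all genes 0.524% were higher and 12.7% lower at 12 h, and 26.7% and 28.2% at 7 days. At 7 days the poly(A)-binding protein genes moved apart. Pabpc1 was at 64.1, 56.2 and 56.9 RPKM in controls and 170.7, 181 and 175 at 7 days, a rise of 1.56 ± 0.16. Pabpc4 was at 191, 172 and 188 in controls and 42.2, 50.5 and 64.0 at 7 days, a fall of 1.81 ± 0.25. Neither pair of groups overlapped, and both calls passed in all 20 alternatives.

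Cyfip1 and Cyfip2, whose products bind eIF4E with FMRP, also moved in opposite directions at 7 days. Cyfip1 rose by 1.13 ± 0.15, in all 20 alternatives, and Cyfip2 fell by 1.07 ± 0.20, lost with the column code (adjusted p 0.0703). At 12 h both fell, by 0.46 ± 0.15 and 0.85 ± 0.20, and Cyfip2 also at 24 h, by 0.61 ± 0.20, calls that were lost with either scaling, after GC correction and without control A3259 or A3280. Mknk2, a kinase that phosphorylates eIF4E, fell by 1.06 ± 0.20 at 12 h, 0.84 ± 0.20 at 24 h and 0.94 ± 0.20 at 7 days (adjusted p 0.00707, 0.0161 and 0.000858 in limma). The first 2 of these were lost after GC correction, those at 12 h and 7 days with the column code, and that at 24 h also without control A3259 or A3280 or mouse A3262. Mtor, the kinase that phosphorylates the eIF4E-binding proteins, fell by 0.71 ± 0.18 at 12 h, a call lost with either scaling, after GC correction, and without A3259, A3280, A3258 or A3276. Paip1, which binds the poly(A)-binding protein, rose by 1.13 ± 0.29 at 24 h, and Ncbp2, of the nuclear cap-binding complex, by 0.75 ± 0.22 at 72 h. Both were lost without A3280, Paip1 also without A3259 or A3262 and after GC correction, and Ncbp2 also without A3250, A3278 or A3281.

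Of the 3 tested genes of the eIF5 group, Eif5a was the one without a call against control. Eif5a, which relieves stalled ribosomes and carries the amino acid hypusine, was the second most abundant initiation factor at a mean of 283 RPKM. It stood at 267, 281 and 293 RPKM in controls and 329, 411 and 432 at 7 days, above all controls, with a difference of 0.47 ± 0.21 and an adjusted p of 0.0646 in limma. Eif6, which keeps the ribosomal subunits apart, was at 21.8, 26.97 and 27.6 RPKM in controls and 33.97, 57.1 and 54.1 at 7 days, a rise of 0.87 ± 0.22 (adjusted p 0.00283) without overlap. It was lost in mice without Y-linked RNA alone. Eif5a2 was at 0.82, 0.65 and 0.7 RPKM in controls and 0.55, 2.06 and 2.66 at 7 days, and was not tested.

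Of the 4 Argonaute genes 1 was called against control. Eif2c3, at 1.11, 1.72 and 1.05 RPKM in controls and 2.37, 2.38 and 3.7 at 72 h, rose by 0.73 ± 0.21 (adjusted p 0.0349). The groups did not overlap, and the call was lost after GC correction and without control A3250 or A3280 or mouse A3264 or A3281. Eif2c1, Eif2c2 and Eif2c4 stood at 2.19 to 5.43, 2.35 to 8.68 and 1.31 to 4.16 RPKM and passed in no comparison with control.

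Beyond initiation, a list of 10 elongation and release factors gave 1 higher and 1 lower at 12 h, 1 and 0 at 24 h, 0 and 0 at 72 h, and 5 and 2 at 7 days. The shares of all genes at 7 days were 26.7% higher and 28.2% lower. Eef1a1 and Eef1a2 encode the 2 forms of the factor that delivers aminoacyl-tRNA, of which Eef1a2 is known as the form of muscle and neurons. Eef1a1 was at 599.6, 571 and 589 RPKM in controls and 1556, 1415 and 1741 at 7 days, a rise of 1.41 ± 0.17. Eef1a2 was at 1074, 1160 and 1267 in controls and 308, 336 and 366 at 7 days, a fall of 1.79 ± 0.18. The groups did not overlap, and both calls passed in all 20 alternatives. The release factor genes Etf1 and Gspt1 rose by 1.44 ± 0.23 and 1.09 ± 0.19 at 7 days. Both calls were lost with the column code as a term, at 0.78 and 0.53 (adjusted p 0.062 and 0.0523). Eef1e1, a component of the aminoacyl-tRNA synthetase complex, rose by 0.71 ± 0.21 at 12 h, 0.83 ± 0.21 at 24 h and 0.90 ± 0.21 at 7 days, each lost after GC correction. At 12 h Eef1a2 fell by 0.59 ± 0.18, a call lost without any 1 of the 6 mice, and after GC correction the difference of Eef1a2 was 0.05.

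Markers of other cell types moved with the 7 day group. The summed RPKM of 5 macrophage markers was 939 to 1300 at 7 days and 95.2 to 114 in controls, that of 5 fibroblast markers 974 to 1170 and 409 to 475, and that of 5 neutrophil markers 22.0 to 30.4 and 0.760 to 2.65. All 5 macrophage, 4 of 5 fibroblast and 3 of 3 tested neutrophil markers rose, while 26.7% of all genes rose and 28.2% fell at 7 days. The sum of 5 cardiomyocyte markers was 9010 to 9080 at 7 days and 26900 to 29300 in controls, with 4 of 5 lower. The endothelial sum was 128 to 156 against 184 to 199, also with 4 of 5 lower. Of 5 smooth muscle and pericyte markers 3 were higher and 1 lower, and their sum, 259 to 340, overlapped that of controls, 198 to 274. Of 4 tested atrial markers 1 was higher and 1 lower, and the sum of all 5 was 615 to 1280 against 105 to 119. Nppa is among these 5, and the share of each gene in that sum was not tested. All 3 red cell markers found were lower, at 103 to 686 against 1920 to 3220. No marker list had a summed level of 0 in any group. The part of these cells in the 7 day values of Eif4a1, Eif4a2 and the other initiation factor genes was not tested. At 12, 24 and 72 h the macrophage sum was 77.2 to 157, and the cardiomyocyte sum 16400 to 25300, below the controls.

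Between successive times, 8 of the 54 genes rose and 0 fell from 12 to 24 h, against 3.35% and 0.57% of all genes. Those that rose were Eif1a, Eif1ay, Eif3j, Eif3s10, Eif4b, Eif4e, Eif4ebp1 and Eif5. Eif4ebp1 was lost in 0 of 19 alternatives, Eif4e in 3 and the other genes in 7 to 13. At an unadjusted p under 0.05 in limma 2 genes were lower in that step. From 24 to 72 h 6 rose and 3 fell, against 7.67% and 2.57%. The eIF3 genes Eif3d, Eif3eip, Eif3g and Eif3i were among those that rose, by 0.61 to 0.70, with Eif4a1 (0.79 ± 0.16) and Eif4ebp3 (0.87 ± 0.26), and Eif1ay, Eif4e and Eif4ebp1 fell. The calls of the eIF3 genes and of Eif1ay and Eif4ebp3 were each lost without A3262, without A3278 and with the 2 groups fitted alone. Eif4ebp1 and Eif4ebp3 were each lost in 9 of 20 alternatives, Eif4a1 only with the 2 groups alone, and Eif4e in 0. Neither this step nor that from 12 to 24 h could be fitted with the column code. From 72 h to 7 days 12 rose and 8 fell, the Argonaute Eif2c3 among the latter, against 22.6% and 22.3%. The largest of these steps were the rise of Eif1a by 1.33 ± 0.27 and the fall of Eif4a2 by 1.78 ± 0.24, and Eif6 rose by 1.01 ± 0.22.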

How the data were processed

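RNA with poly(A) tails from mouse ventricles was sequenced in paired ends. The authors deposited 1 table of RPKM values per gene, made, per the submitters' processing notes, with TopHat and Bowtie on mm9. Tool versions, counting rules and strand: not given in the sources used here. An RPKM table holds no read counts, so no count model was run.

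Columns of the same mouse were averaged, and log2(RPKM + 1) was fitted with limma 3.58.1 (R 4.3.3, empirical Bayes with trend) for 15 mice in 5 groups, over 10868 genes with a mean of at least 1 RPKM. P-values were adjusted by Benjamini-Hochberg over all these genes in each comparison, with a threshold of 0.05. A difference on this scale understates the change of low genes. Errors after ± are standard errors of the fit, with 10 residual degrees of freedom. Median-of-ratios and quantile normalization are the scalings named as alternatives. Other alternatives were a pseudocount of 0.1, no filter or a mean of at least 5 RPKM, GC correction by a lowess curve (span 0.3), the first column of each mouse, robust empirical Bayes, each pair of groups alone, a term for the column code (mouse as a block), A3278 alone, and removal of each mouse. The fits by single columns of A3264, with Y-linked RNA as a term and without mice that have it, were chosen after seeing the data. In simulated data for 24 h against control the fit recovered 70% of 100 log2 changes of 1 and 99% of 100 changes of 2, with 8 false calls. Changes smaller than 1 were not simulated. The simulated noise was independent between genes, without shifts of whole libraries, GC trends or column codes.

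Depth was estimated from the lowest steps of RPKM values in each column. Gene models are those of GENCODE on mm9, and promoters those of RefSeq on GRCm38.p6, matched by symbol or identifier for 44 of 55 genes. The genes and lists were chosen with earlier results of these data known. All 55 genes are accounted for. Values are given for genes past the test whose mice did not overlap the controls, up to 6 in each family and comparison, for core genes by role, and for up to 4 partners of each list and comparison by smallest p. Other partners were named after their values were seen.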

Additional observations from a re-analysis of the deposited data

How the results depend on the processing

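No paired analysis was possible because the mouse numbers differ in every group. Counts of initiation factor genes past the test moved by over 1.5 times as follows, and the cause was not tested. At 12 h (5) the count was 0 with median-of-ratios scaling, quantile normalization, GC correction, the column code as a term or mice without Y-linked RNA alone, 1 with the first column of each mouse, 3 with Y-linked RNA as a term, 14 with 2 groups alone, and 0 to 6 without single mice. At 24 h (11) it was 5 in mice without Y-linked RNA, and 2 to 11 without single mice. At 72 h (7) it was 11 with quantile normalization, 14 with GC correction, 1 with the column code (a fit that rests on A3278 there), 0 in mice without Y-linked RNA, and 2 to 13 without single mice. At 7 days (24) it was 13 with the column code or in mice without Y-linked RNA, and 13 to 21 without single mice. From 12 to 24 h (8) it was 5 with median-of-ratios scaling or first columns, 4 with quantile normalization or 2 groups alone, and 2 to 8 without single mice. From 24 to 72 h (9) it was 1 with 2 groups alone, 4 in mice without Y-linked RNA, and 2 to 10 without single mice. From 72 h to 7 days (20) it was 13 with A3278 alone. The median log2 difference at 12 h (-0.20) was 0.14 with median-of-ratios scaling, 0.069 with quantile normalization, 0.087 with GC correction, -0.047 with the column code, and -0.25 to -0.12 without single mice. At 24 h (0.04) it was 0.24, 0.17 and 0.21 with the first 3 of these, at 72 h (0.13) 0.31 with the column code or A3278 alone, and at 7 days (0.27) 0.43 with the column code. Reversed were Eif5b (-0.06) and Atf5 (0.29) at 7 days with the column code, and with GC correction Eef1a2 at 12 h (0.054) and 24 h (0.45) and Nck1 at 7 days (-0.55). The column code could not be fitted at 24 h. Depth is estimated and not known, so no interval of counting error is given.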
